A study of Oryza sativa with 2 samples.

Results

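Chromosome 3 of rice was described through the 6006 gene identifiers that start with MH03g, sorted by identifier and divided into 20 bins of 300 or 301 neighbours. These are 6006 of the 57342 identifiers with an FPKM value in both libraries, and they were set against the 51135 identifiers of the other 11 numbered chromosomes. Both libraries came from Minghui 63 (MH63), an indica line that is a parent of the hybrid Shanyou 63. Seeds were soaked for 72 h at 37 °C, and the plants grew in a phytotron with 14 h days at 32 °C and 10 h nights at 28 °C. They were 2 weeks old when collected at 8:00. The sample labels call the tissue seedling and the extraction protocol names leaves. No treatment was given, no group was set against another, and no label states whether the 2 libraries are from different plants, so their spread may be technical. The identifiers carry a chromosome number and a running number but no coordinates. "Along the chromosome" therefore means along the identifier order, and the genome build is not given in the sources used here. No source used here pairs the identifiers with gene names, so genes are given by identifier and no function is stated.

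In a plant chromosome, protein-coding genes are denser along the arms, and the region around the centromere is rich in transposable elements and other repeats that are mostly silenced. Many genome annotations also carry gene models that lie in such repeats, and these models seldom give transcripts. H3K4me3, the histone mark whose RNA contacts the study mapped, sits at the promoters of transcribed genes.

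Total RNA depleted of ribosomal RNA was sequenced. Library 1 held 18096722 gene counts and library 2 held 18799901, of which chromosome 3 took 1220405 (6.74%) and 1259622 (6.70%). For an identifier of the median length of chromosome 3, 1443 bases, an FPKM of 1 was 26.1 counts in library 1 and 27.1 in library 2, and a count of 0 allowed an FPKM of up to 0.115 and 0.111 (3 counts). These limits cover counting error, for reads with a single alignment. RNA was taken from whole tissue, so fewer cells that use a gene and less RNA per cell cannot be told apart.

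More of chromosome 3 was expressed than of any other chromosome, at each of 3 levels. In both libraries alike, 1867 of its identifiers reached an FPKM of at least 1 (31.1%, 95% Wilson interval 29.9% to 32.3%), against 22.4% on the other 11 chromosomes together and 14.6% to 28.9% on single ones. In library 1 alone the share was 32.1% on chromosome 3, against 23.3% on the other 11, and in library 2 alone it was 31.8%, against 23.1%. The libraries thus differed by less than 1 point where the chromosomes differed by more than 8.

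The order held among strongly expressed genes with less certainty. An FPKM of 10 or more was reached by 545 identifiers of chromosome 3 (9.07%, 8.37% to 9.83%), against 5.86% on the other 11 (3.32% to 8.18% on single chromosomes). An FPKM of 100 or more was reached by 47 (0.783%, 0.589% to 1.04%), against 0.505% (0.272% to 0.750%). At 100 or more the interval of chromosome 3 held the values of chromosomes 7 (0.750%) and 1 (0.632%), so it does not set them apart. This interval is over identifiers, not reads. The other chromosomes have intervals too, and at 100 or more all but those of chromosomes 9 and 10 overlapped that of chromosome 3. The interval of chromosome 2 also overlapped it at an FPKM of 1 (27.7% to 30.1%) and of 10 (7.49% to 8.93%). The intervals treat identifiers as independent, which neighbours are not, and are likely too narrow. The chromosome was chosen with its share known, so no test was run on it.

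Fewer identifiers of chromosome 3 were without any count. There were 1818 with 0 counts in both libraries (30.3%, 29.1% to 31.4%), against 36.9% on the other 11 chromosomes, whose lowest was 31.2% on chromosome 2, inside the interval of chromosome 3. With 1 library at a time the share at 0 was 37.3% in library 1 and 39.1% in library 2 on chromosome 3, against 44.9% and 47.1%. The median count per identifier was 2 in both libraries on chromosome 3, against 1 in both on the others together, but chromosome 2 also had 2 in both.

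**Figure D1:**
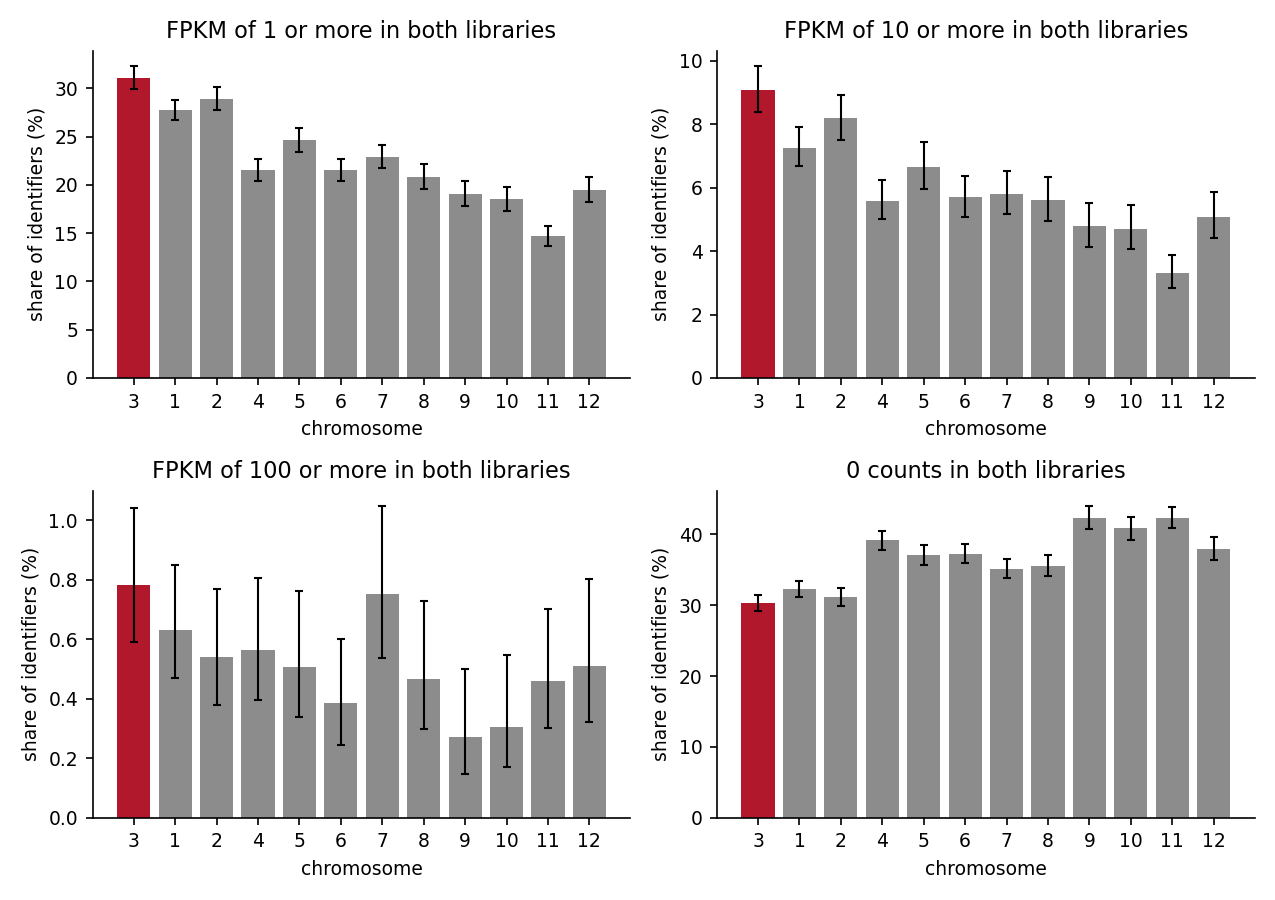
Share of identifiers (%) per chromosome that reached an FPKM of 1, 10 or 100 or had 0 counts in both libraries. Bars are shares, error bars 95% Wilson intervals; chromosome 3 (red) has the highest share at each floor, 31.1%, 9.07% and 0.783%, and the lowest share at 0 counts, 30.3%.

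Among the expressed identifiers the level itself was a little higher on chromosome 3. The median FPKM of identifiers at 1 or more was 5.39 (library 1) and 5.30 (library 2) on chromosome 3, against 4.89 and 4.79 on the other 11 chromosomes. The quartiles in library 1 were 2.55 and 12.2 on chromosome 3, against 2.42 and 11.1 on the others. The highest median of any single other chromosome was 5.21 in library 1, below that of chromosome 3. The quartiles were not the highest, since those of chromosome 2 were 2.61 and 12.7 in library 1.

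The floor divides a continuous range of levels. On chromosome 3, 61 identifiers reached an FPKM of 1 in library 1 alone and 42 in library 2 alone. The identifier just inside the floor was MH03g0757900, with an FPKM of 1.001 in library 1 and 1.17 in library 2. Just outside lay MH03g0189000, with 1.41 in library 1 and 0.998 in library 2. The lower of the 2 FPKM values lay between 1 and 1.2 for 82 identifiers and between 0.8 and 1 for 81, so the floor does not fall in a gap.

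Along the chromosome the expressed share was high at both ends and low in a single broad middle part. It was highest in bin 1, with 148 of 301 identifiers (49.2%), and nearly as high in bin 19, with 146 of 300 (48.7%). Bins 1 to 7 lay between 33.3% and 49.2%, and bins 16 to 20 between 35.2% and 48.7%. Bins 8 to 15, a stretch set apart after the values were seen, lay between 5.98% and 25%. The lowest was bin 11, with 18 of 301 identifiers (5.98%), and its value was the same in each library alone. Over all 20 bins the share in library 1 and the share in library 2 differed by at most 1.99 points, far less than the bins differed from each other.

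With the ends and the middle set by rule as 10 bins each, 1222 of 3003 identifiers were expressed in bins 1 to 5 and 16 to 20 (40.7%), against 645 of 3003 in bins 6 to 15 (21.5%). The 2 ends were alike, at 40.6% in bins 1 to 5 and 40.8% in bins 16 to 20. With this cut the difference of 19.2 points between outer and middle bins was the largest of the 12 chromosomes. The others ran from 1.24 to 18.1 points. The rank depends on the cut: with 2 bins at each end as the outer part, chromosomes 5 and 6 had larger differences than chromosome 3. Chromosome 4, with 1.24 points, had low bins early in its order, such as bin 2 at 5.28%. With the 10 outer bins of chromosome 3, the shares at an FPKM of 10 or more were 11.9% in the outer and 6.26% in the middle bins. At 100 or more there were 28 and 19 identifiers, 0.932% and 0.633%. Above the floor, the median FPKM of expressed identifiers was 5.35 (library 1) and 5.22 (library 2) in the outer bins, against 5.57 and 5.40 in the middle bins. With bins 8 to 15 taken as the low part the order of the medians was the opposite, 5.28 and 5.15, against 5.46 and 5.32 in the other 12 bins. Single bins ranged more widely, from 3.55 and 3.33 in bin 14, with 58 expressed identifiers, to 9.28 and 9.17 in bin 11, with 18.

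The low part was placed off the centre of the order. Bins 6 and 7 belonged to the middle by rule and were expressed at 41.7% and 36.2%, while bins 12 to 15 ran from 13.3% to 22.3%. Among the same-numbered bins of the other chromosomes the median was 11.8% in bin 6 and 9.77% in bin 7, and chromosome 3 lay above all 11 there. In bin 13 the order was the opposite, with 13.3% on chromosome 3 against a median of 27.9%. In all, chromosome 3 was above the median of the others in 15 of 20 bins, above all 11 in 11 bins, and below all 11 in bin 11 alone. The low part lies in different bins on different chromosomes, so bins of the same number do not set like parts side by side. Ranked from the highest to the lowest bin, without regard to place, chromosome 3 lay above the median of the others at all 20 ranks and above all 11 at 13 of them. It had 12 bins at 30% or more, against 0 to 11 on the others (median 6), and 1 bin under 10%, against 0 to 8 (median 4).

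**Figure D2:**
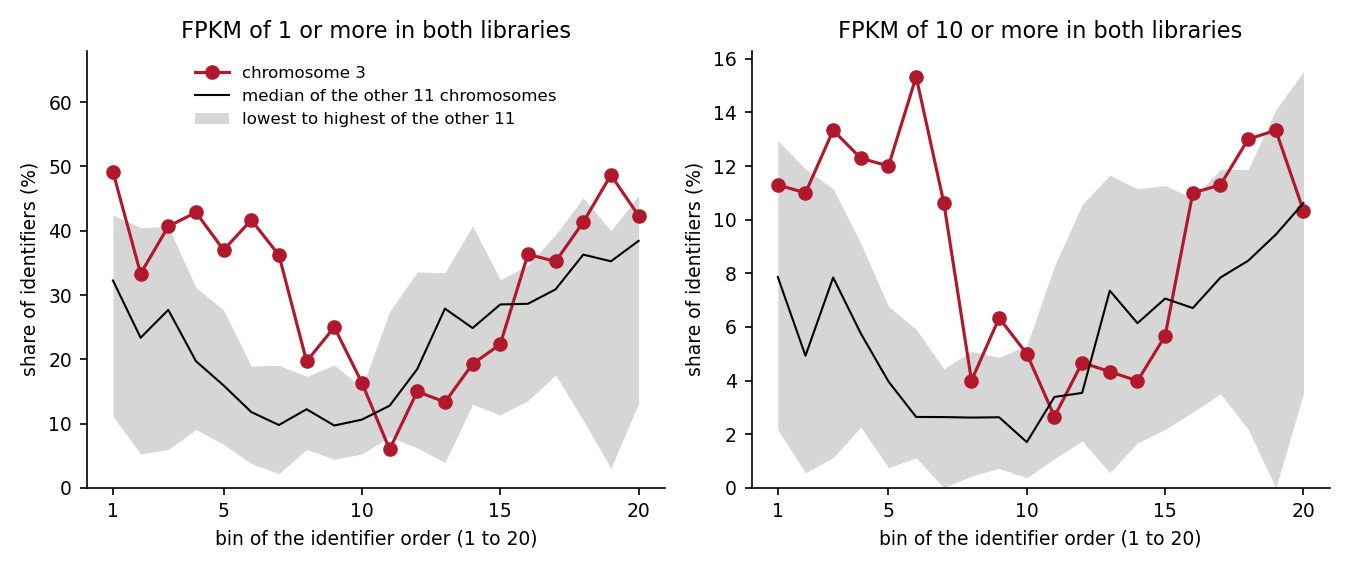
Share of identifiers (%) at an FPKM of at least 1 (left) and at least 10 (right) in library 1 and library 2, in 20 equal bins of the identifier order. Red points are chromosome 3, the black line is the median and the grey band the lowest to highest of the other 11 chromosomes; at the floor of 1, chromosome 3 peaks at 49.2% in bin 1 and falls to 5.98% in bin 11, below the band.

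The 5 longest stretches without an expressed identifier held 319 identifiers and lay in bins 7 to 12, none of them in bins 13 to 15. From MH03g0237600 to MH03g0257400, across bins 7 and 8, none of 100 neighbouring identifiers reached an FPKM of 1 in either library. The identifier number jumps by 10000 inside it, with 28 identifiers before the jump and 72 after it. The next longest such stretches had 62 identifiers (MH03g0395100 to MH03g0401200) and 55 (MH03g0374200 to MH03g0379600), both in bin 11. Stretches of this size occurred elsewhere too: by the same criterion the longest on each other chromosome had from 71 to 172 identifiers and was longer than 100 on 4 of them. Of the 20 identifiers before the stretch of 100, 10 were expressed, and of the 20 after it 8. MH03g0257500, the first after it, had 1061 counts in library 1 and 1031 in library 2, an FPKM of 16.6 and 15.5.

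Within the stretch of 100, 59 identifiers had 0 counts in both libraries, and all 100 together took 264 counts from library 1 and 214 from library 2. The first identifier, MH03g0237600, held 56.1% and 55.1% of these, with 148 and 118 counts and an FPKM of 0.860 and 0.660. The other identifiers that reached an FPKM of 0.5 in either library lay near the far end, MH03g0257100 with 0.975 and 0.497 and MH03g0257300 with 0.502 and 0.697. Of the lengths, 97 were divisible by 3, as lengths of coding sequence without untranslated regions are.

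Lengths also recurred inside that stretch. The length 4500 occurred 5 times, 876 occurred 6 times and 825 occurred 4 times. The rest of chromosome 3, with 5906 identifiers, held 3, 14 and 7 identifiers of these lengths. The other 11 chromosomes together held 11, 88 and 66. The length 300 also occurred 4 times in the stretch, all at 0 counts in both libraries. Recurrence was not particular to this stretch. Among 63 neighbours without an expressed identifier on chromosome 5 the length 816 occurred 7 times, and among 62 on chromosome 9 the length 432 occurred 7 times. In all, 31 of the 100 identifiers shared their length with another of the stretch. In windows of 100 neighbours along chromosome 3, placed end to end, that share had a median of 6% and reached 22% in windows clear of the stretch. Of these 15 identifiers of length 4500, 876 or 825, 14 had 0 counts in both libraries and 1 had a single count in library 1. A shared length does not show a shared sequence, and sequence was not examined. Reads that aligned to several places were not counted, and their part in these low counts was not tested.

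The gene models themselves changed along the chromosome with the expressed share. In bin 11, 179 of 301 identifiers had 0 counts in both libraries (59.5%), against 44 of 300 (14.7%) in bin 19, the bin with the lowest share. The median length was 1825 bases in bin 1 and 1830 in bin 20, and between 995.5 and 1083 in bins 11 to 14. Lengths divisible by 3 made up 94.7% of bin 11, the highest of the 20 bins, and 54.8% of bin 1, the lowest. In bin 11 the share at 0 and the share divisible by 3 were both above those of all 11 other chromosomes in the same bin. Bins with other numbers went higher: bin 2 of chromosome 4 had 75.1% at 0 counts, and bin 9 of chromosome 8 had 96.1% of lengths divisible by 3. Over the 20 bins the expressed share had a Spearman rho of -0.925 with the share at 0, 0.902 with the median length and -0.913 with the share divisible by 3. These describe 20 neighbouring bins of the same 2 libraries, which are not independent, and the share at 0 is partly the complement of the expressed share.

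**Figure D3:**
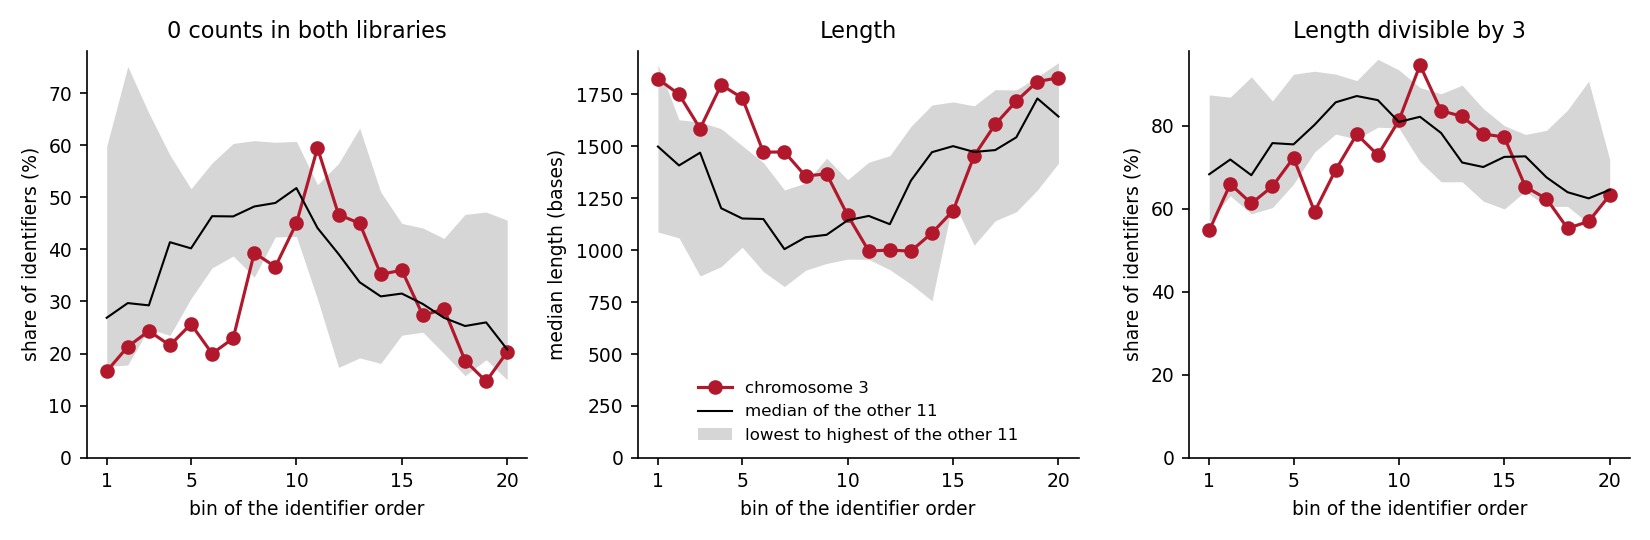
Share of identifiers with 0 counts in both libraries (%), median length (bases) and share of lengths divisible by 3 (%) in 20 bins of the identifier order. Red points are chromosome 3, the black line is the median and the grey band the range of the other 11 chromosomes; in bin 11 chromosome 3 has 59.5% at 0 counts and 94.7% of lengths divisible by 3.

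The comparisons above were not adjusted for length. Length and divisibility by 3 were therefore held alike for chromosome 3 and the other 11 together, but not for single chromosomes. No source used here gives the kind of model, and divisibility by 3 does not settle it. Identifiers of chromosome 3 had a median length of 1443 bases, against 1317 on the other 11, a difference of 126 bases that was 12 among lengths divisible by 3. Of all chromosome 3 lengths, 70.0% were divisible by 3, against 74.7%. Expressed identifiers of chromosome 3 had a median length of 2228 bases and those with 0 counts 688.5. When the others were weighted to the lengths and divisibility of chromosome 3, their expressed share was 24.0%, against 31.1% on chromosome 3, and their share at 0 was 34.9%, against 30.3%. The difference in the expressed share was then 7.06 points in place of 8.73.

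The difference was present in most classes of length and divisibility. Among lengths divisible by 3, 22.2% of 4206 identifiers were expressed on chromosome 3, against 15.7% on the others. Among the other lengths it was 51.8% of 1800, against 42.1%. By length in 10 classes, chromosome 3 was higher in 9, from 3.56 points for 315 to 479 bases to 14.1 points for 2217 to 2840 bases. The exception was the shortest class, up to 314 bases, with 8.75% on chromosome 3 against 9.31%. With each class also divided by divisibility, chromosome 3 was higher in 16 of the 19 strata compared. Among lengths not divisible by 3 it was lower for 315 to 479 bases (4.76% against 6.18%) and for 480 to 710 bases (5.66% against 8.01%).

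The fall from the ends to the middle was likewise present among lengths divisible and not divisible by 3, though smaller among the second. Among lengths divisible by 3 the expressed share on chromosome 3 was 31.6% in the outer bins, against 14.7% in the middle bins. Among the other lengths it was 55.8%, against 45.0%. The shares of the other chromosomes by length and divisibility, applied to the models of chromosome 3, gave 26.7% for the outer and 21.3% for the middle bins, a difference of 5.42 points where 19.2 were measured.

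Counts were spread over more genes on chromosome 3 than on most chromosomes. It held 14.2% of the counts of the 12 chromosomes in library 1 and 14.3% in library 2, with 203 and 210 counts per identifier, against 144 and 148 on the other 11. Its 10 identifiers with most counts held 17.8% of its counts in both libraries, against 16.7% to 71.1% on single other chromosomes in library 1, where chromosome 5 alone was lower. The top 100 held 49.4% in library 1 and 49.8% in library 2, the lowest of the 12. To reach 50% of the counts took 104 identifiers in library 1 and 101 in library 2, against 2 to 99 and 2 to 98 on the others. None of these numbers is scaled to chromosome size, which ran from 3536 to 6803 identifiers, with 6006 on chromosome 3. Chromosome 5, with 4533 identifiers, needed 99 in library 1, a larger part of its identifiers than on chromosome 3. The same 10 identifiers led each library, and the top 100 had 97 in common.

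By bin, the top 10 identifiers held from 41.3% of the counts in bin 20 to 92.9% in bin 13 in library 1. This share was below the median of the same-numbered bins of the other chromosomes in 15 of 20 bins, and below all 11 in 8, in each library. Bins of the other chromosomes held from 176 identifiers (chromosome 12) to 341 (chromosome 1), and only chromosome 1 had larger bins than chromosome 3. A top 10 is thus a smaller part of a bin on chromosome 3 than on most others, and this was not adjusted for. The highest identifiers stood in bins with few expressed identifiers as well as in bins with many. MH03g0450600, in bin 13, had the highest level of the chromosome, with an FPKM of 1261 in library 1 and 1265 in library 2 (1263 ± 3.34, SD, n = 2). Its 41199 and 42960 counts were 71.4% and 71.9% of its bin, where 40 of 300 identifiers were expressed. It held 3.38% of the counts of the chromosome in library 1 and 3.41% in library 2 (95% Clopper-Pearson interval 3.38% to 3.44% in library 2, counting error only). In bin 7, MH03g0214300, a model of 7673 bases, took 37.9% and 37.6% of the counts with an FPKM of 287 and 280, and the top 10 held 71.0% and 70.9%.

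Bins with many counts differed in how far they rested on few identifiers. Bin 18 held the most counts, 110756 in library 1 and 115682 in library 2. Its leading identifier, MH03g0660400, had an FPKM of 1190 in library 1 and 1201 in library 2 and took 20.5% of the bin in both, while its top 10 held 64.6% and 65.2%. Bin 19, with 146 expressed identifiers, gave 10.5% of its counts to its leading identifier in both libraries, and its top 10 held 45.5% and 45.8%. In bin 11 the top 10 held 90.1% in library 1 and 90.9% in library 2 of only 8696 and 8609 counts. Of the 10 identifiers with most counts on the chromosome, 5 lay in bins 6 to 15, though that middle part held 36.5% and 36.3% of the counts.

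The other leading identifiers by FPKM came from 6 bins. MH03g0231000, of 387 bases in bin 7, had 1057 in library 1 and 1117 in library 2. MH03g0124800 in bin 4 had 681 and 662, and MH03g0173600 in bin 6 had 629 and 634. MH03g0646600 in bin 17, MH03g0183200 in bin 6, MH03g0040500 in bin 1 and MH03g0289800 in bin 9 averaged 512, 447, 425 and 401, with SDs from 1.02 to 14.6 (n = 2). In 9 of the 10 leading identifiers the log2 ratio of library 1 over library 2 lay between -0.11 and 0.03. The exception was MH03g0044000 in bin 1, described with the library differences. Of the 9, MH03g0231000 was also called different, higher in library 2 (adjusted p = 0.00168 by the exact binomial test).

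**Figure D4:**
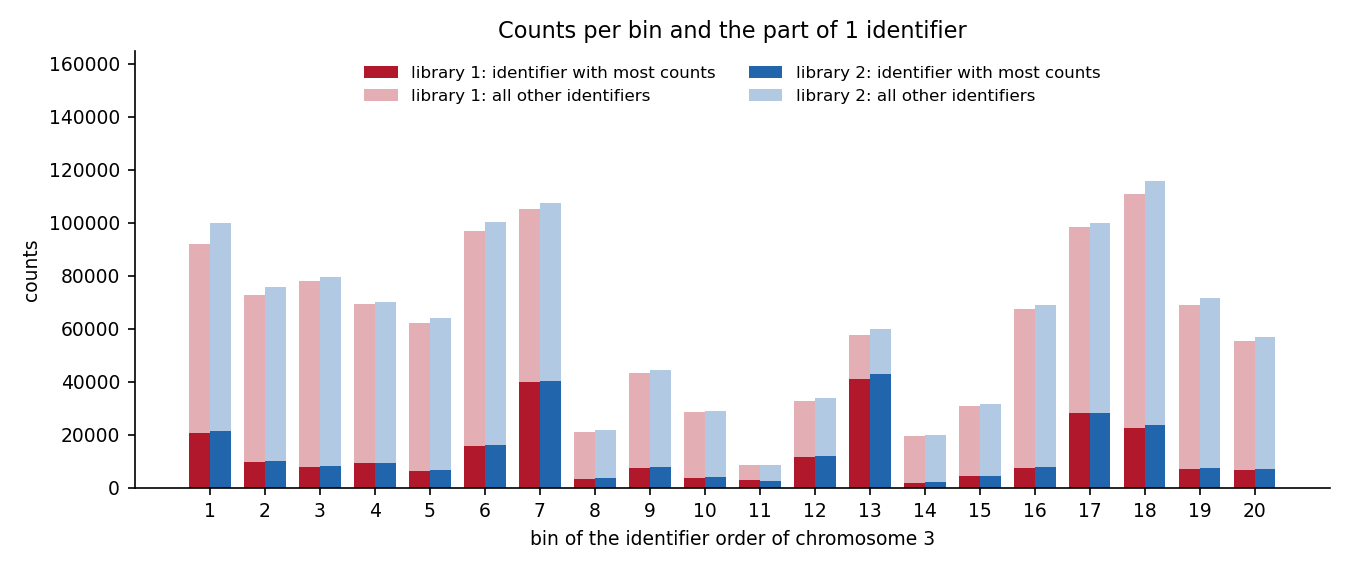
Counts in 20 bins of the identifier order of chromosome 3, in library 1 (red) and library 2 (blue). The dark part of each bar is the identifier with most counts in the bin; it makes up 71.4% and 71.9% of bin 13 and 10.5% of bin 19, and bin 11 has the fewest counts.

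Expressed identifiers stood next to each other more often on chromosome 3 than elsewhere. Runs grow longer and more numerous with the expressed share and the number of identifiers, so the values below are not separate from that share. The longest unbroken run had 15 neighbours, MH03g0110600 to MH03g0112000 in bin 4, against 7 to 12 on the other chromosomes. Their FPKM ran from 1.12 to 18.0 in library 1 (median 6.55) and from 1.08 to 21.2 in library 2 (median 6.81), so none of them was among the strongest genes. This lead was lost under several settings. The longest run was 15 both on chromosome 3 and elsewhere in library 2 alone, with FPKM rescaled to MH counts and at a floor of 0.5, and at a floor of 5 it was 6 on both. Runs of 12 neighbours followed in bin 16 (MH03g0595800 to MH03g0596900) and bin 19 (MH03g0702000 to MH03g0713000). The second of these crosses a place where the identifier number jumps by 10000. Runs of 5 or more numbered 48 and held 309 of the 1867 expressed identifiers (16.6%), against 5.22% to 14.1% on the other chromosomes. Runs of 10 or more numbered 5 on chromosome 3 and 4 on the other 11 together.

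Long runs lay mostly towards the ends. Of the 48 runs of 5 or more, 38 began in the outer bins and held 20.6% of the expressed identifiers there, against 10 runs and 8.84% in the middle bins. Runs of identifiers at 0 counts showed the opposite, with 13 runs of 5 or more in the outer bins, against 39 in bins 6 to 15. The longest of these had 13 neighbours, MH03g0378300 to MH03g0379500 in bin 11, all with lengths divisible by 3. A run of 10 in bin 20, MH03g0777500 to MH03g0778400, stopped 1 identifier before the end of the order, although that bin was expressed at 42.3%.

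The likeness of neighbours on chromosome 3 lay within the range of the other chromosomes. After an expressed identifier the next was expressed in 45.9% of cases on chromosome 3, and after one that was not expressed in 24.4%, a difference of 21.5 points. The other chromosomes had differences from 17.0 to 25.5 points, with 5 below and 6 above chromosome 3. With the comparison kept inside bins the difference was 16.1 points on chromosome 3, against 12.4 to 19.1. Across neighbouring identifiers of chromosome 3 the Spearman rho of log2(FPKM + 1), averaged over the libraries, was 0.305. Inside bins it averaged 0.213 for the next identifier, 0.122 for the second, 0.0269 for the fifth and 0.0201 for the twentieth. These are coefficients across genes of the same 2 libraries and carry no test.

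**Figure D5:**
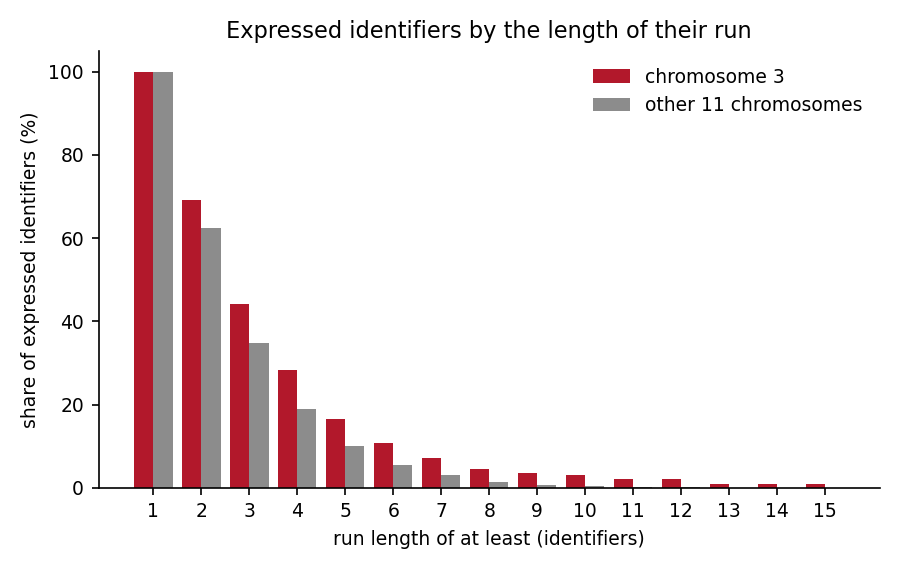
Share of expressed identifiers (%) that stood in an unbroken run of at least the given number of neighbours, each at an FPKM of at least 1 in library 1 and library 2. Red bars are chromosome 3 and grey bars the other 11 chromosomes together; 16.6% of expressed identifiers on chromosome 3 and 9.97% on the others were in runs of 5 or more, and runs of 13 or more occurred on chromosome 3 alone when both libraries had to reach the floor of 1 in the deposited FPKM.

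The libraries were compared per identifier to see whether any of these values rests on 1 library. In a two-sided exact binomial test over all 19770 identifiers of the table with a summed count of at least 10, adjusted by Benjamini-Hochberg over all of them, 0.678% had an adjusted p under 0.05. On chromosome 3 it was 11 of 2592 tested (0.424%), 3 higher in library 1 and 8 higher in library 2, beside 0.293% and 0.384% over the table. The split turns with the scaling, and was 8 and 2 with total gene counts. It was 1 and 18 with DESeq2 size factors, but these were 1 in both libraries. That setting thus made no allowance for the larger total of library 2, 18799901 against 18096722 gene counts. A difference of 1.5-fold or more was called for 1 identifier of chromosome 3, beside 0.111% over the table. Among the 1376 identifiers of chromosome 3 with a mean of 100 or more counts the median size of the log2 ratio was 0.08. The test says that these libraries differ beyond counting noise, not that conditions do.

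The identifier that differed by more than 1.5-fold was MH03g0044000, a model of 532 bases in bin 1. Its FPKM was 425 in library 1 and 964 in library 2, from 4096 and 9637 counts, so that library 2 was 2.31-fold higher (95% interval 2.22 to 2.39). The next identifier, MH03g0044100, had 1107 and 1147 counts and was not called (adjusted p = 1 by the exact binomial test). MH03g0044200, the one after, had 394 and 546 counts and was 1.36-fold higher in library 2 (1.19 to 1.55, adjusted p = 0.00119 by the exact binomial test). The largest differences in the other direction were small. MH03g0507000 in bin 14 gave 1296 counts to library 1 and 1129 to library 2, which is 1.17-fold higher in library 1 (1.08 to 1.27, adjusted p = 0.0202 by the exact binomial test). MH03g0038400 in bin 1 had 2924 and 2605, 1.15-fold higher (1.09 to 1.21, adjusted p = 1.92e-04 by the exact binomial test).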

How the data were processed

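Total RNA of 2 libraries (2 µg each, ribosomal RNA removed, strand-marking kit, paired reads of 150 bp, per the labels' protocols) was deposited as tables per gene identifier. Trimmomatic, HISAT2 and HTSeq are named in the submitters' processing notes; no source used here gives versions, build, annotation or strand setting. The counts are raw whole numbers as deposited by the authors, and the FPKM values are the authors' own, per the file headers, over all gene counts. The upper-quartile column was not used. Lengths are of mixed kind, since many are divisible by 3. Counting summary lines, 43.0% and 39.1% of all entries in libraries 1 and 2, were left out.

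Chromosome membership and order were read from the identifiers. "Expressed" means an FPKM of at least 1 in library 1 and in library 2. Bins are 20 equal parts of the order of each chromosome, so their size differs between chromosomes. Length strata are 10 classes over all MH identifiers, each divided by divisibility by 3. Library differences used TMM-scaled sizes (edgeR 4.0.16, R 4.3.3), a pseudocount of 0.5 for log2 ratios and an exact binomial test. The test was run on simulated counts with counting noise alone, which cannot show how it behaves with further spread between libraries. DESeq2 1.42.0 served as an alternative, with size factors of 1 in both libraries. Other steps used scipy 1.17.1, pandas 2.3.3 and numpy 2.4.6 in Python 3.11.15. Named identifiers are the 10 highest by mean FPKM, the leading identifier of the bin with most counts, the ends of the longest runs, and the largest library differences (2 per direction, mean of 100 or more counts). Other identifiers, among them the leading one of bin 7, the silent stretches, the identifiers next to the floor and those beside MH03g0044000, were chosen after their values were seen. Members and comparisons were chosen with earlier results of these data known.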

Additional observations from a re-analysis of the deposited data

Results flagged for a closer look

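Signal outside the comparisons was present in 2 places that bear on chromosome 3. Entries with more than a single alignment, which no identifier received, made up 27.7% of all entries in library 1 and 25.8% in library 2. The 44 MH identifiers without a chromosome number had 247 counts in library 1 and 272 in library 2. Of these, 1 was expressed and 23 had 0 counts in both, and any that belong to chromosome 3 are missing from its values.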

How the results depend on the processing

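The expressed share of chromosome 3 minus that of the other 11 chromosomes was 8.73 points. It was 8.93 at an FPKM of 0.5, 5.22 at 5, 9.17 with 10 counts in place of FPKM, 8.91 with FPKM rescaled to MH counts, 6.55 and 9.66 among lengths divisible and not divisible by 3, 7.06 after weighting to lengths and 8.73 to 8.79 with a single library. Chromosome 3 ranked first under each floor, count and library alternative. The difference in the share at 0 counts was -6.64 points, with -9.64 for fewer than 3 counts, -4.65 after weighting and -7.92 to -7.59 with a single library. The median length difference was 126 bases, 106 among expressed identifiers and 12 among lengths divisible by 3. The outer minus middle difference was 19.2 points, with 21.5 at 0.5, 9.52 at 5, 23.3 with 10 counts, 21.8 rescaled to MH counts, 16.8 and 10.8 among lengths divisible and not divisible by 3, and 19.3 to 19.9 with a single library. It was 15.4 with outer parts of 2 of 20 bins or 1 of 10 bins at each end, which are the same identifiers. With 2 of 20 bins at each end it was larger on chromosomes 5 and 6. On chromosome 3 it was 13.8 after the share expected from lengths was subtracted, an alternative added after seeing the data. The top 10 held 17.8% of the counts, 15.8% without the leading identifier, 21.6% of the FPKM and 17.8% with either library. The longest run was 15, with 6 at an FPKM of 5, 17 with 10 counts, 16 with a single gap allowed and 15 with a single library (other chromosomes reached 15 in library 2 alone and 12 in library 1 alone) or when ended at number jumps (added after seeing the data). The 11 identifiers that differed between libraries became 19 with DESeq2 size factors (9 shared), which were 1 in both libraries and left depth unscaled. They became 8 to 15 under the 4 other alternatives, and 1 at 1.5-fold or more (added after seeing the data). Leaving out a library allows no library comparison. Why values moved was not tested, beyond fewer identifiers passing higher floors. No paired analysis was possible because there is only 1 group. Depth limits calls at the floor for short models, where an FPKM of 1 was 11.6 counts in library 1 at the lower quartile of length, 638 bases.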
